A study of Mus musculus with 4 samples.

Results

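Pdpn, Dsp, Emp1, H19, Slc4a11 and Agap1 are 6 genes, of 22471 measured, whose signal was far lower in cultured regulatory T (Treg) cells from mice with T cell deletion of Junb than in cells from control mice. They were chosen by that large loss, that is, by the log2 difference in processed signal between the genotypes on these same arrays, so the genotype difference of each is given below as a description without a test. Also described are the agreement of a gene's probes, the spread between the controls, the relatives and partners of the genes, and their neighbours and promoter sequence. Apart from the promoter sequence, these come from the same arrays that made the choice. The gene lists and the window for neighbours were set with values of these data known.

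RNA was measured on 4 single-colour (Cy3) Agilent arrays. The 2 controls were Junbfl/fl and the other 2 were Junbfl/flCd4-Cre, all on the C57BL/6 strain, so both genotypes carry floxed Junb and only the second carries Cre recombinase driven by the Cd4 promoter, which is active in the T cell lineage. Naive CD4 T cells were sorted and differentiated for 3 days on anti-CD3 bound to the plate at 1 μg/ml, together with anti-CD28 at 0.5 μg/ml, neutralizing antibodies to IFN-γ and to IL-4 at 5 μg/ml, and human TGF-β1 (recombinant, 5 ng/ml). The arrays of the Cre genotype are called Cre 1 and Cre 2 below, and Junb-deficient 1 and 2 in the plots. The labels give neither the age of the mice nor whether 2 arrays of 1 genotype stand for different animals, so p-values cover only the spread between arrays, which may be technical. In RNA from a whole culture, fewer cells that express a gene and less RNA per cell cannot be told apart.

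JunB is a subunit of AP-1, a family of dimeric transcription factors that bind the DNA motif TGACTCA or TGAGTCA and respond to T cell receptor signals. Pdpn encodes podoplanin, a mucin-type membrane glycoprotein of lymphatic endothelium, stromal cells and some effector T cells that binds the platelet receptor encoded by Clec1b. Dsp encodes desmoplakin, which links desmosomes to keratin filaments in epithelia and heart. Emp1 encodes a small membrane protein with 4 membrane-spanning segments related to Pmp22. H19 is an imprinted long noncoding RNA next to Igf2, Slc4a11 encodes a membrane transporter of the SLC4 family that is known from the corneal endothelium, and Agap1 encodes a GTPase-activating protein for ARF GTPases, which act in membrane traffic.

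Between 59.3% and 66.3% of spots were well above background on each array, and no spot outside the controls on the array was saturated. Brightness differed by genotype, the 75th percentile of the probes being 151 and 145 on the controls, against 119 and 101 on the Cre arrays. Processed signals quoted below are not scaled for this, while the log2 differences are. Junb probe A_55_P2011106 had a processed signal of 47.2 on control 1 and 31.7 on control 2, against 4.11 and 1.47 on the libraries labelled Cre 1 and Cre 2, where it was not well above background (at least 5.71-fold lower). The brighter Junb probe, A_51_P159194, read 9791 on control 1, 9072 on control 2, 1053 on Cre 1 and 10078 on Cre 2, so on Cre 2 it went against the label. Which part of Junb the floxed alleles remove is not stated, and signal from outside that part would check nothing. Each direction below rests on the labels.

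The extraction label names colon, whereas sample titles and cell type name Treg cells made in culture. All 15 T and Treg cell markers measured, among them Cd3e, Cd4 and Foxp3, had a probe well above background on both controls. Of 18 colon epithelium markers, 5 did so and 9, including Vil1, Muc2 and Fabp2, were well above background on no array. Their summed signal, each gene divided by the array's 75th percentile, was 2.73 on control 1 and 3.71 on control 2, against 4.11 and 4.71 on the Cre arrays. The 16 stromal and endothelial markers summed to 28.99 and 24.5 without Cre and to 18.1 and 18.5 with it, nearly all of it from Acta2, and without Acta2 to 0.722 and 0.781 against 1.62 and 1.36. Of the 7 tested, 6 had a higher mean with Cre, with a median of 1.14, and 8 of the 16, including Pdgfra, Lyve1 and Flt4, were well above background on no array. The 13 myeloid markers summed to 268 and 263 without Cre and to 460 and 429 with it, mostly from Siglech, and without Siglech to 26.7 and 17.9 against 62.4 and 32.5. The myeloid markers Lyz2, S100a8 and S100a9 were well above background on control 1 and not on control 2, and Adgre1 and Fcgr1 on no array. The 8 B cell markers summed to 5.02 and 1.75 without Cre and to 9.50 and 5.52 with it. All 7 B cell markers tested and all 9 myeloid markers tested had a higher mean with Cre, with medians of 1.14 and 1.85. By limma 2 of 8 colon markers tested (Slc26a3 and Car4) and 2 of 7 stromal ones (Col1a1 and Dcn) rose. The B cell marker Ms4a1, 1 of 7, also rose, and 3 of 15 T cell markers (Thy1, Cd2 and Ctla4) fell. No myeloid marker was called (2 at an unadjusted p under 0.05). Over all genes, 7.02% were called higher and 1.43% lower. Without Cre, Slc26a3, Car4, Col1a1 and Dcn never reached the level of well above background. With their control readings raised to that level, the smallest rise was 8.44-fold for Slc26a3, 3.22-fold for Dcn, 1.88-fold for Col1a1 and 1.73-fold for Car4. The 15 T and Treg cell markers summed to 1174 and 1177 without Cre and to 999 and 930 with it. Of these markers, 10 had a lower mean with Cre and 5 a higher one. Foxp3 read 1287 and 1301 on the controls, against 298 and 584 on the Cre arrays (log2 difference -1.20, adjusted p = 0.133, limma). Il2ra read 12848 and 12037, against 2279 and 3668 (log2 difference -1.67, adjusted p = 0.0653, limma). The part of other cells in the results on the 6 genes was not tested.

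The 6 genes were read by 11 probes, 3 genes by 1 probe each and 3 by several. In 10 of the 11 probes both Cre arrays were below both controls, a pattern that 23.7% of all 56310 probes showed. All 6 were among the genes called lower by limma, as were 1.43% of all genes, and in that order of fitted differences they took places 3, 4, 5, 9, 12 and 13. That contrast chose them, so nothing is read from these counts. The interleukin genes Il9 and Il17f took the first places, and Egln3, the next gene after the 6 in that order, gave -4.25.

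**Figure D1:**
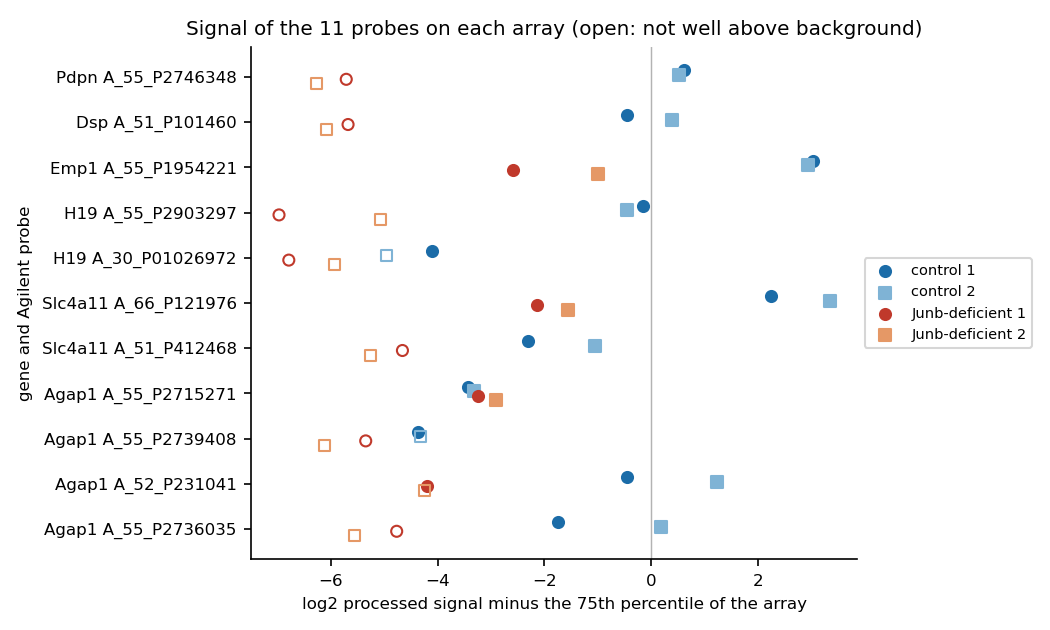
Log2 processed signal minus the array's 75th percentile for each of the 11 probes (rows) on the 4 arrays. Filled symbols are well above background and open symbols are not. The Cre arrays lie to the left of the controls for 10 probes and, by little, to the right for Agap1 probe A_55_P2715271.

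**Figure D2:**
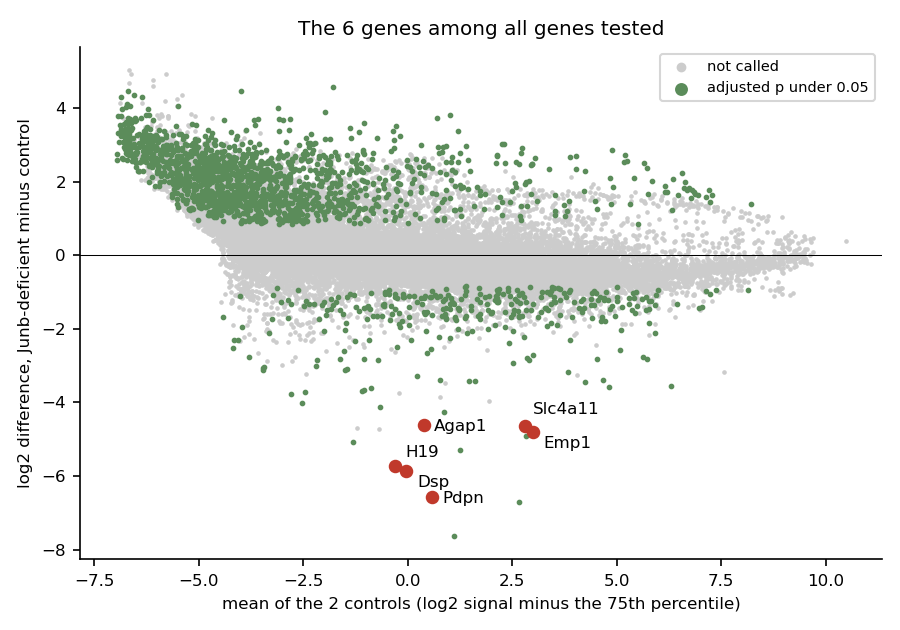
Log2 difference between genotypes against the mean log2 signal of the 2 controls for 22471 genes, with genes called at an adjusted p under 0.05 in green and the 6 genes in red. The 6 lie between -4.61 and -6.56.

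Pdpn was read by probe A_55_P2746348 (chr4:142857423-142857482, minus strand, mm9), designed on the RefSeq transcript of the gene. Its processed signal was 233 on control 1 and 209 on control 2, against 2.28 and 1.32 on Cre 1 and Cre 2. The controls were close to each other, while neither Cre array was well above background, and the reading on Cre 2 was the small value that the scan software substitutes at background. When each Cre reading was raised to the dimmest signal that counts as well above background on its array, Pdpn was at least 32.5-fold lower. The fitted log2 difference of -6.56 ± 0.24 (SE of the fit, n = 2 arrays per genotype) therefore leans on readings at background. In the authors' deposited table the log2 difference of Pdpn was -3.19.

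Dsp, read by probe A_51_P101460 (chr13:38290121-38290180, plus strand, mm9), had processed signals of 110 on control 1 and 190 on control 2, against 2.33 and 1.48 on the Cre arrays. Again neither Cre array was well above background. Dsp was at least 21.4-fold lower, and the fitted log2 difference was -5.85 ± 0.37 (SE, n = 2 per genotype). After scaling, control 2 read 1.80-fold above control 1.

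Emp1 kept a measurable signal on every array. Its probe A_55_P1954221 (chr6:135333061-135333120, plus strand, mm9) read 1245 on control 1 and 1118 on control 2, against 19.9 and 50.4 on the Cre arrays, all well above background. The controls lay within 1.07-fold of each other after scaling, and the Cre arrays differed by 1.58 log2 units, array 2 being the higher. The fitted log2 difference was -4.79 ± 0.58 (SE, n = 2 per genotype), or 27.7-fold, and by same-numbered arrays it was -5.63 for number 1 and -3.95 for number 2.

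Slc4a11 was also measured on all arrays. Probe A_66_P121976 (chr2:130509952-130510011, minus strand, mm9) read 722 on control 1 and 1474 on control 2, against 27.2 and 34.5 on the Cre arrays, which gave a log2 difference of -4.64 ± 0.46 (SE, n = 2 per genotype), or 25.0-fold. The second probe, A_51_P412468, lies 2703 bases away, and its 60 bases are spread over 261 bases of the genome (chr2:130512655-130512915). It read 30.7 on control 1 and 69.8 on control 2, against 4.72 and 2.62, not well above background, on the Cre arrays, at least 6.59-fold lower. Both probes were lower on both Cre arrays, and they also ordered the controls alike, control 2 being above control 1 by 2.13-fold and 2.37-fold after scaling.

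H19 was read by a pair of probes in its noncoding transcript, 681 bases apart, whose sequences are given, 5′ to 3′, because they differed in what they could detect.
A_55_P2903297 (chr7:149761492-149761551, minus strand, mm9): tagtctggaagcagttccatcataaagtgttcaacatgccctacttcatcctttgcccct
A_30_P01026972 (chr7:149762173-149762232, minus strand, mm9): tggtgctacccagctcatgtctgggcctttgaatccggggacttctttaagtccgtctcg
The first of these, designed on the RefSeq transcript, read 136 on control 1 and 106 on control 2, against 0.951 and 3.00, not well above background, on the Cre arrays. By it H19 was at least 17.7-fold lower, with a fitted log2 difference of -5.72 ± 0.70 (SE, n = 2 per genotype). The second read 8.79 on control 1 and 4.65 on control 2, against 1.08 and 1.65 on the Cre arrays, and was well above background on control 1 alone. Its order of arrays was the same between genotypes, but it gave no fold change above its background.

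Agap1 was the gene whose probes disagreed. Of its 4 probes, A_52_P231041 (chr1:91786199-91786258, plus strand, mm9) and A_55_P2736035 (chr1:91791595-91791654) are designed on the RefSeq transcripts and lie 5396 bases apart. The first read 110 on control 1 and 340 on control 2, against 6.53 and 5.29 on the Cre arrays, with only array 1 well above background, and gave a log2 difference of -4.61 ± 0.62 (SE, n = 2 per genotype). The second read 45.3 on control 1 and 164 on control 2, against 4.38 and 2.14, not well above background, on the Cre arrays, at least 12.7-fold lower. These 2 probes were alike in the genotype difference and in the order of the controls, where control 2 was 3.23-fold and 3.79-fold above control 1 after scaling.

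The other 2 Agap1 probes were dimmer on the controls and differed from each other. A_55_P2715271 (chr1:91356189-91356248), designed on a separate Ensembl transcript 430010 bases upstream of A_52_P231041, was well above background on all 4 arrays. It read 13.9 on control 1 and 14.5 on control 2, against 12.7 and 13.4 on the Cre arrays, a log2 difference of 0.31 with no loss. A_55_P2739408, whose 60 bases span 68029 bases of the genome (chr1:91663022-91731050), read 7.34 on control 1 and 7.25 on control 2, against 2.93 and 1.45 on the Cre arrays, and was well above background on control 1 alone. A_55_P2739408 was lower on both Cre arrays, with a log2 difference of -1.39 near background. The size of the lower signal of Agap1 therefore rests on the pair of RefSeq probes, and the probe of the upstream transcript did not show it.

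Both control values entered the choice of the genes through their mean, so the difference between the controls is not independent of it. Over all genes tested, control 2 and control 1 differed by a median of 0.25 log2 units in either direction. The gap was smaller than that for Pdpn (-0.09) and Emp1 (-0.09), and of similar size for H19 (-0.29). It was larger for Dsp (0.85), Slc4a11 (1.09) and Agap1 (1.69), a size that 88.3%, 92.0% and 96.5% of all genes did not exceed. The 6 genes thus split by which control was brighter, Dsp, Slc4a11 and Agap1 on control 2 and the other 3, by little, on control 1.

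**Figure D3:**
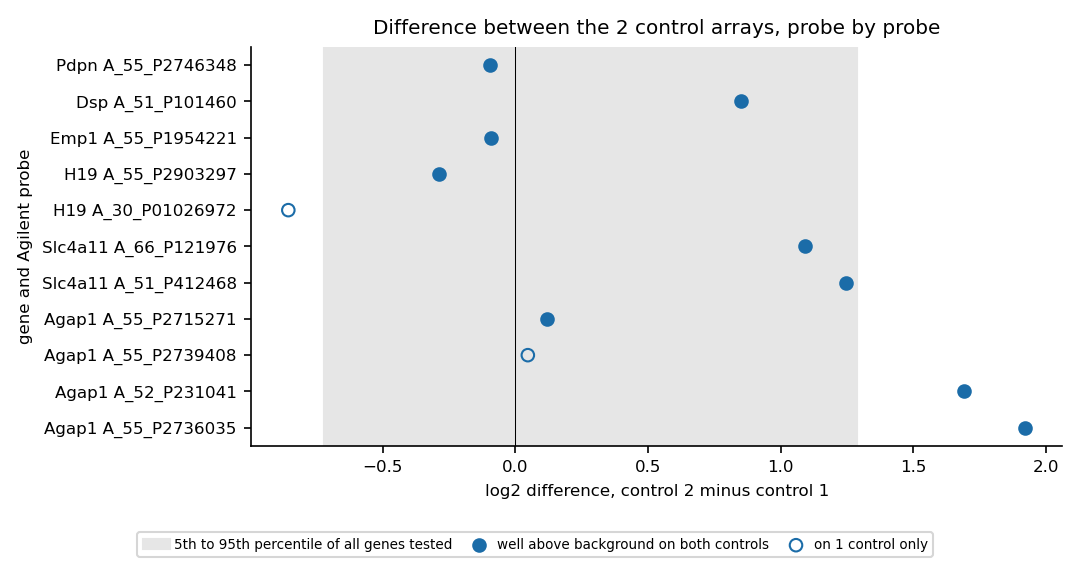
Log2 difference of control 2 minus control 1 for each probe, after scaling, with the 5th to 95th percentile of all genes tested shaded (-0.72 to 1.29). The probe pair of Slc4a11 and the RefSeq probes of Agap1 stand together to the right, and the upstream Agap1 probe A_55_P2715271 lies near 0.

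The Cre arrays differed by a median of 0.21 log2 units over all genes. Emp1 and Slc4a11, measured above background on both, were higher on Cre 2 than on Cre 1 by 1.58 and 0.58 log2 units. Pdpn, Dsp and H19 were at background on both, so their Cre arrays have no order, and Agap1 was at background on Cre 2. After scaling, the brighter Junb probe was 0.67 log2 units higher on Cre 2 than on control 2. On Cre 2, Emp1 and Slc4a11 differed from control 2 by -3.95 and -4.90 on the log2 scale. On Cre 1 they differed from control 1 by -5.63 and -4.39, and Agap1 by -3.73.

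For likeness, each gene's 4 values were centred on their mean and compared with those of the 20278 genes well above background on both controls, by Euclidean distance on the log2 scale over the 4 arrays. Since the order of arrays was fixed by the choice, these neighbours describe the pattern and are not evidence of a link. Nearest to Pdpn were Il17f (distance 0.72) and Il9 (1.37), and nearest to Dsp were Il17f (0.85) and Anxa3 (1.06). Nearest to Emp1 were Acsbg3 (0.70) and Ccl20 (1.03), and to H19, at a greater distance, Ccl20 (1.496) and Acsbg3 (1.67). Nearest to Slc4a11 were Ccl20 (0.32) and Il17a (0.82), and to Agap1 Myof (0.68) and Il17a (0.73). Within the 6, Slc4a11 and Agap1 were the closest pair (0.62). The values of Ccl20 (732 and 1532 on the controls, 21.3 and 31.6 on the Cre arrays) show the same brighter control 2 as Slc4a11.

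The relatives and partners of the 6 genes were called about as often as other genes. In 7 lists covering 143 genes, 95 were tested, 7 rose and 2 fell by limma (adjusted p under 0.05), together 9.47% of those tested against 8.45% of all genes. The shares lower were 2.11% in the lists and 1.43% over all genes, and those higher 7.37% and 7.02%, so the lists were near the background in both directions. Of the 95, 47 (49.5%) had a negative log2 difference, as had 49.5% of all genes. The median log2 difference over all genes was 0.01, and 83.1% of all calls were higher. Scaling to the array median instead moved that median to -0.52 and that share to 21.0%, so a difference near 0 below has no settled direction. With 1 array left out no gene of all 22471 was called, so the calls could not be checked that way, and the log2 differences then ranged, for example, from 2.27 to 2.49 for Meg3, from 3.02 to 4.07 for Kcnq1 and from -2.63 to -1.79 for Evpl.

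Among the partners of Dsp 1 gene rose and 1 fell. Of 19 desmosome and related junction genes 10 were tested, with a median of -0.19. Evpl, which encodes envoplakin, a plakin relative of desmoplakin, fell by 2.21 ± 0.36 (adjusted p = 0.049, limma), from processed signals of 221 and 279 to 32.5 and 49.1. Dsg2, a desmosomal cadherin, rose by 1.74 ± 0.28 (adjusted p = 0.0479, limma), by 1 of 3 probes, the others being at background, from 10.1 and 9.05 to 32.6 and 17.4. Jup, which encodes plakoglobin, the partner that joins cadherins to desmoplakin, read 13.0 on control 1 and 15.2 on control 2, against 10.6 and 10.8 on the Cre arrays (log2 difference 0.04, adjusted p = 0.88). Of the other members, 7, including Pkp1 and Dsg3, were well above background on no array.

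Most epithelial identity and junction genes were not called. Of 32 listed, 17 were tested, with a median of 0.41 (-0.12 with scaling to the array median). Limma called 1 higher and 1 lower, and 9 had an unadjusted p under 0.05. Of the 17, 12 had a positive log2 difference and 5 a negative one. Among the 5, Sfn gave -1.10 (adjusted p = 0.0524, limma), from 4193 and 3186 to 1312 and 1227, and St14 gave -0.97 (adjusted p = 0.055). Grhl2, a transcription factor of epithelia, rose by 2.18 ± 0.28 (adjusted p = 0.0367, limma), from 5.76 and 3.47, the second not well above background, to 15.9 and 14.4. The other Grhl2 probe was well above background on no array (log2 difference 0.25). Epcam, the epithelial surface adhesion protein, read 24.4 on control 1 and 29.3 on control 2, against 9.62 and 21.0 on the Cre arrays (adjusted p = 0.503). The keratin gene Krt18 gave 0.15 (adjusted p = 0.699), and Cdh1, the epithelial cadherin, was well above background on no array. The listed genes thus went both ways, and the 6 are named here by their symbols and not as epithelial genes.

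Among 13 podoplanin partners 11 were tested and limma called none (1 at an unadjusted p under 0.05), with a median of -0.35. Of the 11, 8 had a negative log2 difference, and scaling to the array median called 7 lower. Clec1b, the podoplanin receptor, was well above background on no array. Among the relatives of Emp1, limma tested 3 of 6 and called none (2 at an unadjusted p under 0.05), while scaling to the array median called 2 lower. Emp3 gave -1.04 (adjusted p = 0.0675), from 1796 and 1205 to 588 and 478, and Pmp22 gave 1.49 (adjusted p = 0.118), from 53.9 and 96.2 to 112 and 201. Perp, the other one tested, gave -0.38, so the values lay on both sides of 0.

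Of 36 imprinted genes listed beside H19, 22 were tested, with a median of 0.40 (-0.13 with scaling to the array median). By limma 4 rose and none was called lower (9 had an unadjusted p under 0.05), while scaling to the array median called 4 lower. Among the 7 with a negative difference, Gnas gave -0.65 (adjusted p = 0.0728) and Plagl1 -1.15. Meg3, a maternally expressed long noncoding RNA like H19, rose by 2.38 ± 0.16 (adjusted p = 0.0288), from 8.09 and 9.002 to 37.1 and 29.3, and of its other 4 probes none was well above background on a control. Rian, from the same imprinted cluster, rose by 2.04 ± 0.17 (adjusted p = 0.0296), from 8.11 and 7.08, the second not well above background, to 27.5 and 19.5. Kcnq1, which encodes a potassium channel, rose by 3.54 ± 0.43 (adjusted p = 0.0353), by 1 of its 5 probes, the only one well above background on all arrays. That probe went from 8.29 and 16.4 to 94.2 and 108. Probe A_55_P2086203, well above background on control 1 alone, went the other way (-1.59), from 17.4 and 1.60 to 1.14 and 1.48. The remaining Kcnq1 probes gave 0.24, 0.28 and 0.30. Mest, below that level on each control, was at least 1.498-fold higher (adjusted p = 0.0297). Igf2, the neighbour of H19, was well above background on no array by either of its 2 probes, with no signal over 3.69.

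The list of SLC4 transporters also held Slc4a1ap, which encodes an adaptor protein and not a transporter. Of its 10 genes limma tested 6 and called none, while scaling to the array median called 3 lower. An unadjusted p under 0.05 was found for 3 of the 6, Slc4a1ap (-0.57) among them. Slc4a2, an anion exchanger, gave -0.80 (adjusted p = 0.0545) and Slc4a9 gave 0.79 (adjusted p = 0.0731). In the ARF GAP family with its ARF GTPases, 27 of 28 were tested, and Adap2 rose by 1.30 ± 0.19 (adjusted p = 0.0418, limma), from 10.9 and 13.2 to 23.6 and 20.3. None was called lower by limma (10 with scaling to the array median), 10 of the 27 had an unadjusted p under 0.05, and the median was -0.21.

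**Figure D4:**
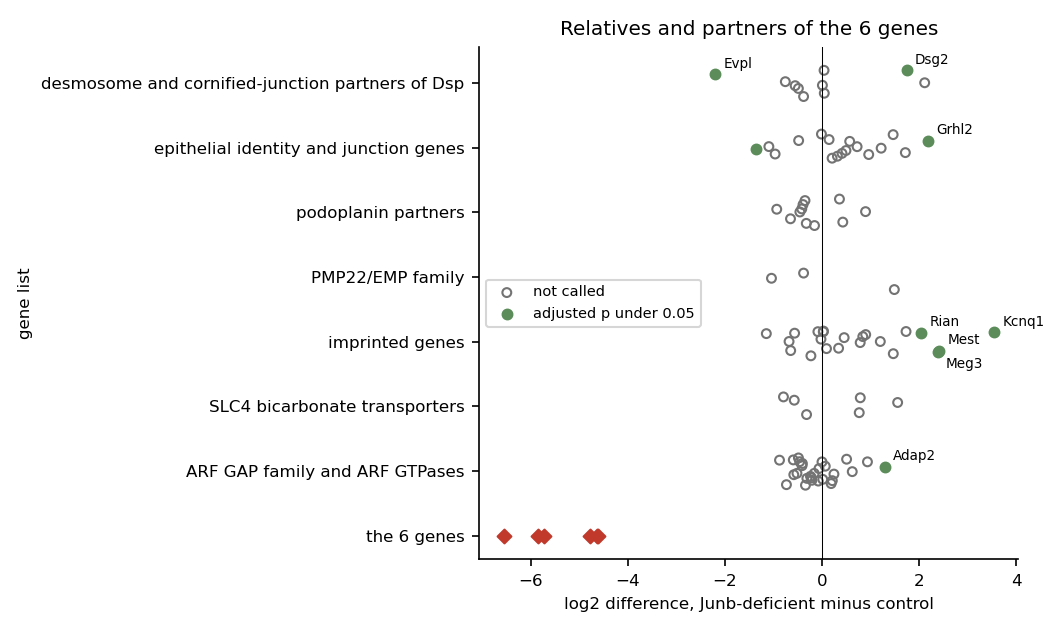
Log2 difference between genotypes for the 95 tested genes of the 7 lists, with genes called at an adjusted p under 0.05 in green, most of them named, and the 6 genes as red diamonds in the bottom row. The listed genes lie on both sides of 0, from -2.21 (Evpl) to 3.54 (Kcnq1), and the 6, chosen for their size, are drawn for scale.

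Genes beside the 6 on the chromosome were compared by a window chosen after their values were seen, 200 kb on either side of a gene's probes in mm9. It held 39 tested genes, of which limma called 0 lower (9 were lower at an unadjusted p under 0.05) and 3 higher, against 1.43% and 7.02% of all genes. The 3 were Lzts3, near Slc4a11, which rose by 2.52 ± 0.24 (adjusted p = 0.0297), and near Emp1 Gm19434 (2.28 ± 0.22, adjusted p = 0.0297) and a long noncoding RNA probe (1.94 ± 0.31, adjusted p = 0.0484). Of the 13 genes beside Slc4a11, whose median was -0.36, Itpa gave -1.04 (adjusted p = 0.0501), Fastkd5 -0.85 (adjusted p = 0.068) and 6330526H18Rik -2.50 (adjusted p = 0.365). Beside H19, Mrpl23 gave -0.74 (adjusted p = 0.0668) and Lsp1 0.40 (adjusted p = 0.224). Larger differences there were -1.47 for Syt8 (adjusted p = 0.237), 1.21 for Nctc1 (adjusted p = 0.0954) and 1.07 for Igf2os (adjusted p = 0.19). The median of the 7 genes beside H19 was 0.40. Beside Pdpn, Prdm2 gave -0.82 (adjusted p = 0.117), and beside Dsp, Riok1 gave -0.48 (adjusted p = 0.0942).

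Because JunB binds DNA as part of AP-1, the promoters were searched for its motif. RefSeq promoter windows, 250 bases before to 50 after the start site on GRCm38.p6, were held for 4 of the 6 genes, with a pair for Emp1. H19 and Slc4a11 were not searched. The AP-1 motif (TGACTCA or TGAGTCA, which are each other's reverse complement, so both strands are covered) was in 1 of the 5 windows, at Emp1, and in 5.20% of all 32851 windows. The GC box (GGGCGG or its reverse complement CCGCCC) was in 35.7% of all windows, and in those of Pdpn, Dsp, Agap1 and the first of Emp1. Neither motif overlaps the other. Shown are the 30 bases around the match at Emp1 and the 250 bases upstream of Pdpn and Dsp among the genes that differed most, with motif matches in capitals.
Emp1 (chr6:135362774-135362803, plus strand): ggtctgtgtgtcTGAGTCAgagggagctac
Pdpn (chr4:143299565-143299814, minus strand): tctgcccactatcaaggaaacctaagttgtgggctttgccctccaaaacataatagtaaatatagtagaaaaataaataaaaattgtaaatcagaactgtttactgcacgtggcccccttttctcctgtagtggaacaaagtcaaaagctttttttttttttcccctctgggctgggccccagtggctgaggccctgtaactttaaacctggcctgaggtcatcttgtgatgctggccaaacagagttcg
Dsp (chr13:38151044-38151293, plus strand): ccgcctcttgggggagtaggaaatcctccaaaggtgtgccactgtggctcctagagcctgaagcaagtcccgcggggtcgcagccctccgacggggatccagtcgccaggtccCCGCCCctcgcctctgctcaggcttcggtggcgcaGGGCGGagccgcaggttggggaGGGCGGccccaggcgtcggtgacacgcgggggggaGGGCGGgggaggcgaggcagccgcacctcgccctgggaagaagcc
The match at Emp1 begins 145 bases upstream of that start site. The Pdpn bases shown hold no match, its GC boxes lying after the start site, and those of Dsp hold 4 GC boxes. GC content upstream was 43.2% for Pdpn, 44.4% and 45.6% for the Emp1 windows, 72.4% for Dsp and 78.8% for Agap1, which lies on both sides of the median of 52.4% over all windows. A match is only those letters, and no match says nothing about JunB binding elsewhere.

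The size of each difference depended on how background was treated. With normexp background correction, which adds an offset of 50 and so compresses dim signals, and quantile normalization, Emp1 and Slc4a11 gave -3.34 and -3.35, Pdpn -2.11, Agap1 -1.89, Dsp -1.59 and H19 -1.57. In the authors' deposited table, which reads Agap1 by probe A_55_P2736035, Emp1 had the largest log2 difference of the 6, at -3.99. The order of the 6 by size changed with the processing, while the direction was the same for all 6 in the settings plotted.

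**Figure D5:**
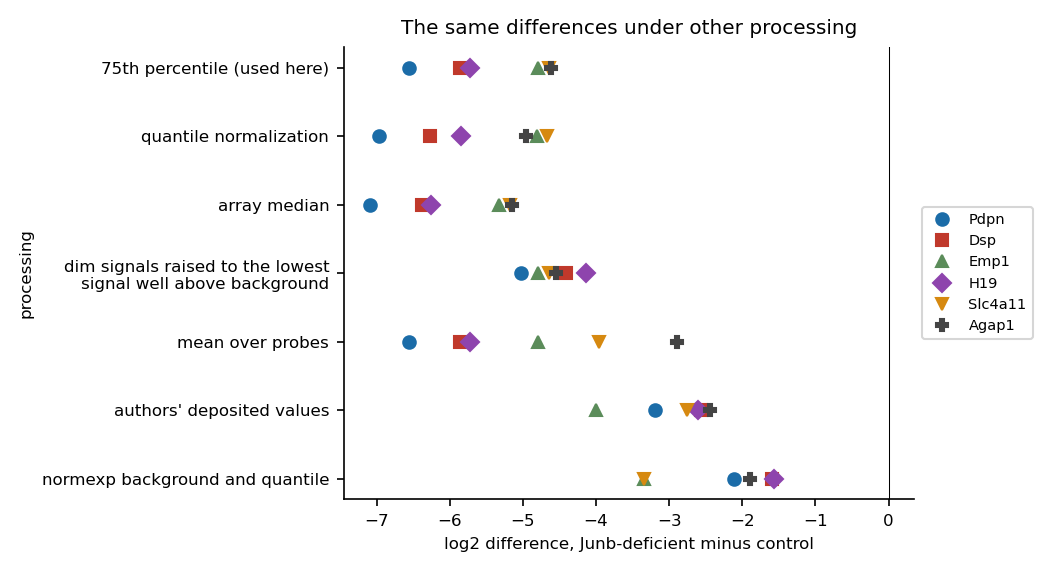
Log2 difference of each of the 6 genes under 7 ways of processing (rows). Each symbol lies left of 0, Pdpn is lowest with the scaling used here at -6.56, and Emp1 and Slc4a11 are lowest with normexp background.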

How the data were processed

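Per the file headers and the submitters' processing notes, Agilent Feature Extraction 11.5.1.1 produced the spot values of each of the 4 scans, and the deposited processed intensity had background and a spatial trend removed inside each array, with no scaling to other arrays. Per the file headers, probe positions are on mm9. The authors deposited a table of log2 signals per accession, and how they normalized it is not stated in any label or header.

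Control and outlying spots were left out, and spots of a probe were averaged, although every probe of the 6 genes had 1 spot. From log2 of the intensity, the 75th percentile of the same array, taken over 56310 probes, was removed. Probes were named through RefSeq accessions and symbols (assembly GRCm38.p6, used for names and for promoter sequences, with no coordinates carried over to mm9), and 33731 matched by accession. Probes had to be well above background on both controls or both Cre arrays. The brightest probe stood for each gene, which gave 22471 genes. limma 3.58.1 in R 4.3.3 fitted the genotype difference without covariates (lmFit, eBayes), with Benjamini-Hochberg adjustment over the 22471 genes, and a gene is called at an adjusted p under 0.05. The fit was tested on simulated data for 22471 genes, all unchanged except 100 made to differ by 1 log2 unit and 100 by 3. It called 0 of the first 100 and 34 of the second. It also called 5 genes that were left unchanged. On the arrays far more genes were called (1899), which moves the cutoff of the adjustment, so these shares do not carry over to the arrays. A gene that was not called may still differ between the genotypes. The precision is limited by the number of arrays.

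The 6 genes and the gene lists were chosen with earlier results of these data known. The 6 were taken for their large loss on these arrays and get no test. Named list genes are the called ones, up to 5 a list, or else the 2 with the smallest p. Jup, Epcam, Krt18, Sfn, St14, Perp, Gnas, Plagl1, Igf2, Slc4a1ap and the chromosomal neighbours were added after their values were seen. Results for 3 list genes that this rule names are not reported here. Likeness, the same-numbered arrays and the other settings are described where they are used. All 4 arrays lay on 1 slide with 1 scan time, so slide could not be a block.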

Additional observations from a re-analysis of the deposited data

How the results depend on the processing

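All 6 genes kept a lower signal with Cre in every setting run, except Agap1, which gave 0.31 by probe A_55_P2715271 and so also when probes had to be well above background on all 4 arrays, a filter that leaves Pdpn, Dsp and H19 without a value. Against the values above, quantile normalization gave -6.97 for Pdpn, and scaling to the array median gave -7.10 for Pdpn and -6.39 for Dsp. Normexp background gave -2.11 for Pdpn, -1.59 for Dsp, -3.34 for Emp1, -1.57 for H19, -3.35 for Slc4a11 and -1.89 for Agap1. The authors' deposited table gave, in that order, -3.19, -2.57, -3.99, -2.61, -2.75 and -2.44. With dim signals at the lowest signal well above background, Pdpn gave -5.02, Dsp -4.42 and H19 -4.14. The mean over probes gave -3.97 for Slc4a11 and -2.90 for Agap1, and single other probes gave -1.83 for H19, -3.29 for Slc4a11 and -1.39 for Agap1 (A_55_P2739408). Leaving out 1 array at a time gave -6.84 to -6.29 for Pdpn, -6.28 to -5.43 for Dsp, -5.58 to -4.00 for Emp1, -6.67 to -4.77 for H19, -5.19 to -4.10 for Slc4a11 and -5.46 to -3.77 for Agap1.

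The counts of calls depended strongly on the processing, and the cause was not tested. Over all genes, 1899 were called here, 454 with quantile normalization, 319 with normexp, 9406 with median scaling, 1253 with all 4 arrays above background and 583 from the authors' values. Median scaling moved the median of all genes to -0.52 and the share of calls that were higher from 83.1% to 21.0%. In the 7 lists the 9 calls became 2 with quantile normalization, 1 with normexp, 40 with median scaling and 2 from the authors' values. Without the filter limma called 0 genes (8819 at an unadjusted p under 0.05) and 0 list genes (30 unadjusted). Without any 1 array it called 0 to 0 genes (4957 to 8136 unadjusted) and 0 list genes (18 to 29 unadjusted), the lone array being assumed to vary like the others. Since no gene passed with 3 arrays, this says nothing about single calls. With the replicate block on array number, which matched the row on the slide, 6852 genes and 25 list genes were called. Among the 25 were 2 of the PMP22/EMP family, 3 of the SLC4 list and 1 podoplanin partner, lists without a call here. Same-numbered arrays deviated together (correlation 0.50 across genes), but no label says what the number marks. Slide and scan were not run as a block because all arrays shared both. Readings at background limit the size given for Pdpn, Dsp and H19.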
